A study of Rattus norvegicus with 12 samples.

Results

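Transcripts of numbered zinc finger genes were followed in cultured rat hippocampal neurons in which transcription was left running or blocked. All spots of a nylon array whose single gene symbol is ZNF followed by a number were taken, which gave 142 spots for 116 genes out of 8496 named spots and 9600 spots in all. A single spot stands for 95 of these genes, 2 spots for 17, 3 spots for ZNF207, ZNF3 and ZNF655, and 4 spots for ZNF503. The symbol is a plain number at 136 spots and carries a suffix at 6, of which 3 are antisense transcripts (ZNF205-AS1 on 2 spots and ZNF667-AS1) and 1 is the pseudogene ZNF271P. Double-stranded clone spots do not separate the strands, so an antisense transcript cannot be told from its partner on the other strand. The arrays carry human complementary DNA clones and the RNA was from rat, so that a spot may read a related transcript. Of the 116 genes, 43 have a rat gene of the same symbol or synonym in RefSeq (GRCr8), and the spots are named here as the human clones are.

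Zinc finger proteins of this kind fold short loops around a zinc ion and mostly use them to bind DNA. Many carry a KRAB domain, which recruits the corepressor TRIM28 and the histone methyltransferase SETDB1 to silence chromatin, and others carry a SCAN domain, through which they pair. Their mRNAs are known in human and mouse cells as a class with fast turnover, so that a block of transcription is a natural place to look for their loss.

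Sprague-Dawley hippocampal neurons of embryonic day 18.5 were grown on a glial feeder layer for 12 days and silenced for 3 h with D-APV (50 µM), CNQX (40 µM) and TTX (100 nM). They were then kept in these blockers (Block) or made active with bicuculline (50 µM) and 4-aminopyridine (500 µM) (BiC/4AP). For both states there is an array with actinomycin D (ActD, 25 µM), an inhibitor of RNA synthesis, and one without, and the labels give times of 5, 30 and 60 min. According to the methods the stimulus was short and followed by harvest at a later time, and ActD was added ahead of it, so a time here is that of the label. Each of the 12 conditions was read on 1 array. The labels give RNA of 3 pooled coverslips per array, whereas the methods give another amount of RNA, pooled over separate experiments, so what 1 array pools is not settled. Comparisons used 6 pairs of arrays that differed only in ActD, 6 that differed only in activity, and 4 sets of 3 times. Nothing in the labels says that arrays came from separate cultures, so p-values measure only the spread between these arrays, which may be technical.

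The median raw intensity of an array ran from 52.6 to 137 over all spots and from 52.2 to 137 over the ZNF spots. The 384 last positions of the printing blocks of 25 spots, none of which is listed with a clone, served as background. A mean log2 intensity above the 95th percentile of those positions (3.12) was found at 142 of 142 ZNF spots. The brightest of those positions had a mean of 3.45, above dim ZNF spots such as ZNF503 (spot 7393, 3.17) and ZNF821 (3.33). An intensity of exactly 10, which recurs on every array, was read at 3 ZNF spots, on 8 arrays for ZNF2 (spot 6764) and on 2 for ZNF667-AS1. A spot reading only 10 would lie above the cutoff too, so passing it does not show a detected transcript. All 8 spots for 7 neuronal marker genes lay above background, as did 3 of 3 for astrocyte and 4 of 4 for microglial markers. So did 3 of 3 for vascular or fibroblast and 5 of 7 for oligodendrocyte markers. Spots were present for 7 of 12 neuronal, 3 of 8 astrocyte, 4 of 7 microglial, 3 of 7 vascular or fibroblast and 4 of 8 oligodendrocyte genes. The share of named spots above this cutoff was not counted, so these counts do not show which cell types were present. In such a mixed culture fewer cells of a type and less RNA per cell cannot be told apart.

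The study predicted targets of miRNAs, which pair with a transcript through their seed (bases 2 to 8). Of the ZNF genes on the array, ZNF747 is a predicted target of the seed shared by miR-330-5p and miR-326-3p, and ZNF202, a repressor of lipid metabolism genes in human cells, one of miR-485-5p. For both transcripts the link is a prediction, and no effect of these miRNAs on them was measured here. The mature rat sequences are shown because the predictions rest on their seeds. Capitals mark the seed, identical in the upper pair. The sequences come from RefSeq (GRCr8), at chr1:87961227-87961248, chr1:163266224-163266244 and chr6:134571076-134571097, all on the plus strand.
rno-miR-330-5p: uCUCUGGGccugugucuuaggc
rno-miR-326-3p: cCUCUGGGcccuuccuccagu
rno-miR-485-5p: aGAGGCUGgccgugaugaauuc
The levels of both transcripts under ActD are given with the other members below.

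Levels are given as log2 intensity after each array was put on a common mean and spread (z-score over all spots), so a change is a change relative to all spots of the array, and a loss shared by most transcripts would not appear in it. Spot brightness depends on the clone as well as on the transcript, and it is given here to show what was measured, not to rank genes by expression. The ZNF spots had a median level of 6.20, against 6.27 for all named spots, and ran from 3.17 (ZNF503, spot 7393) to 14.45. The brightest was ZNF706, which encodes a small zinc finger protein, at 14.45, followed by ZNF670 (12.89), ZNF346 (11.91), which binds double-stranded RNA, and ZNF446 (11.84), a SCAN protein. ZNF35 (10.73), ZNF622 (10.65), a factor in the maturation of the large ribosomal subunit, ZNF493 (10.45), ZNF672 (10.12), ZNF551 (9.93) and ZNF574 (9.90) completed the 10. Of the 10, ZNF622 has a second spot, at 8.62.

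Over the 12 arrays the raw intensity of ZNF706 ran from 17753 to 25781, close to the brightest spot of each array, which lay between 26393 and 32819. ZNF670 ran from 4591 to 11234, ZNF346 from 2423 to 5832 and ZNF446 from 3224 to 4516. With ActD the normalised level of ZNF706 was 13.96 at the lowest, 14.42 at the median and 14.80 at the highest, and without it 13.70, 14.44 and 15.27. ActD and control arrays overlapped at ZNF706, as they did at each of the 142 ZNF spots (0 spots apart in either direction, where 0.0104% of all spots lay apart upward and 0.0208% downward).

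**Figure D1:**
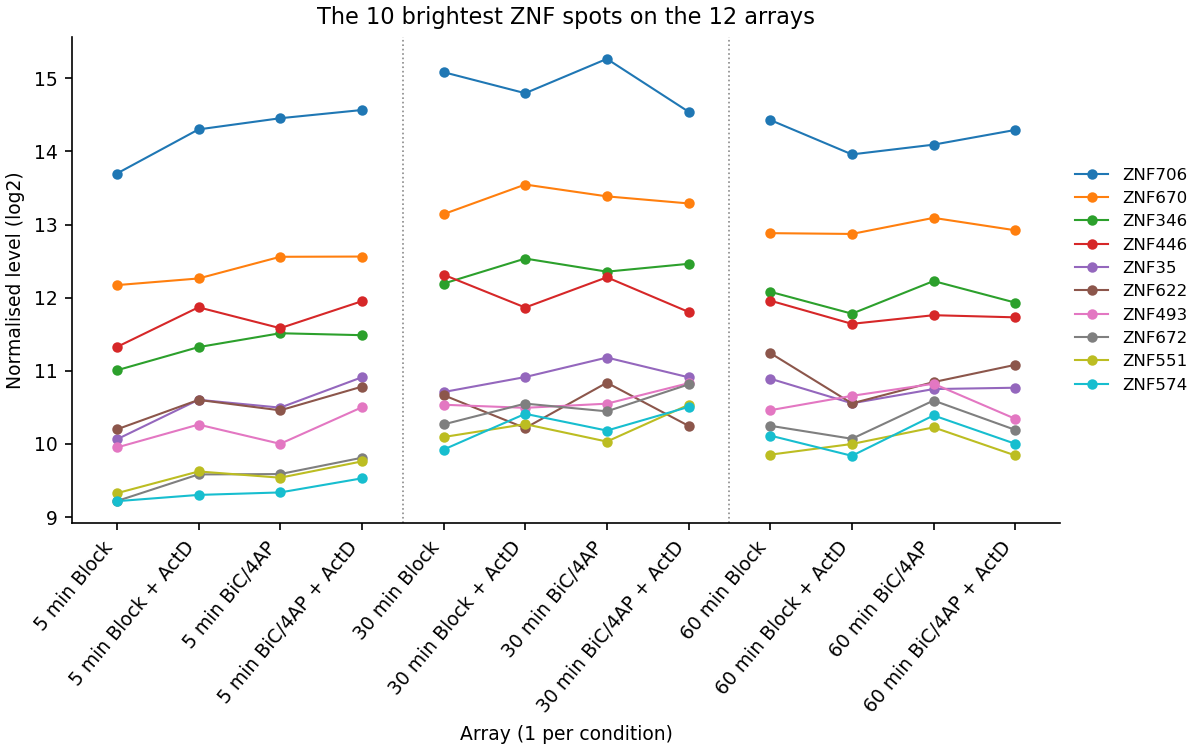
Normalised level (log2, vertical axis) of the 10 brightest ZNF spots on the 12 arrays, 1 array per condition (horizontal axis); lines join arrays of 1 label time. ZNF706 stayed between 13.70 and 15.27. For ZNF670, ZNF346, ZNF672, ZNF551 and ZNF574 the 4 arrays of 60 min lay above the 4 of 5 min. The arrays lay apart in that direction at 18.1% of all spots and 16.9% of the ZNF spots. Among bright named spots (level from 6.99), 27.5% were called higher at 60 than at 5 min and 2.33% lower (limma, adjusted p under 0.05).

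The first question was whether ZNF transcripts were lost when transcription was blocked. With ActD no ZNF spot was called higher or lower over the 6 pairs (limma, adjusted p under 0.05, 0 of 142 in either direction, where 0.0104% of all spots were called higher and 0% lower). The median change of the ZNF spots was 0.0072 on the log2 scale, with a middle range (quartiles) from -0.074 to 0.099, and the median of all named spots was 0.0028. At an unadjusted p under 0.05, 0 spots were higher (0.854% of all spots) and 2 lower (1.24%). The 95% interval of a single spot, before adjustment, reached a median of 0.31 to either side of its change. A call after adjustment over all spots needs a clearer change than that. Losses of this size, and larger ones, could therefore go uncalled at single spots.

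Both spots below that unadjusted threshold were chosen after their values were seen. ZNF526 stood at 5.31, 5.67 and 6.23 without ActD (lowest, median and highest of 6 arrays) and at 5.07, 5.27 and 5.94 with it, a change of -0.31 (SE 0.11, adjusted p = 0.999). ZNF76, related to the snRNA gene activator ZNF143, stood at 5.75, 5.91 and 6.22 without and 5.36, 5.74 and 5.92 with ActD at spot 401, a change of -0.27 (SE 0.11). The groups overlapped at both spots. A second ZNF76 spot (8532) changed by -0.15 (SE 0.14).

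A change of 1 sign in all 6 pairs was seen at 1 spot in the upward direction and 2 in the downward direction, 0.704% and 1.41% of the ZNF spots, against 0.635% and 0.802% of all spots. ZNF765 was higher with ActD by 0.18 (SE 0.09), in single pairs by 0.02 to 0.39. ZNF235 at spot 5511 changed by -0.18 (SE 0.09), and its 6 pairs ran from -0.29 to -0.06. A second, brighter ZNF235 spot (1561) changed by 0.10 (SE 0.14). ZNF207, which encodes a spindle assembly factor, changed by -0.17 (SE 0.10) at spot 6781, its largest difference being -0.51 in the 60 min Block pair. None of these changes passed the test (limma, adjusted p = 0.999 for each). Within their blocks of 25 spots the other spots, last positions aside, changed by a median of 0.08 at ZNF765 and -0.06 at ZNF235 (spot 5511). With block medians subtracted ZNF765 changed by 0.06 and ZNF235 by -0.10. Here and below this means that the median level of the block was taken off on each array before the fit. Such a value is therefore not the change of the spot less the median change of its block.

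The same held at each time. At 5 min the median ActD change of the ZNF spots was -0.025, at 30 min 0.0012 and at 60 min 0.0086, beside -0.0050, -0.012 and -0.0062 for all named spots. No ZNF spot was called at any of these times, where the share called over all spots was 0% in either direction at 5 and 60 min and 0% higher and 0.0104% lower at 30 min. At an unadjusted p under 0.05, 5 were higher and 1 lower at 5 min (3.03% and 2.46% of all spots), 6 and 5 at 30 min (3.26% and 3.25%) and 3 and 1 at 60 min (1.76% and 1.34%). At 1 time the median reach of a 95% interval was 0.51.

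A log2 change under -1 in both pairs of a time was found at 0 ZNF spots at 5, 30 and 60 min, whereas 0.385%, 0.396% and 0.427% of all spots reached it. In single pairs 2, 1, 0, 2, 2 and 0 ZNF spots did so (5 min Block, 5 min BiC/4AP, 30 min Block, 30 min BiC/4AP, 60 min Block and 60 min BiC/4AP), where 1.60%, 2.36%, 2.29%, 3.09%, 2.79% and 1.55% of all spots did. The medians of the 6 pairs were -0.021, -0.051, -0.0081, -0.031, 0.036 and -0.037 in the same order. Both signs occur among the 60 min pairs, and no pair median lay farther from 0 than that of 5 min BiC/4AP.

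**Figure D2:**
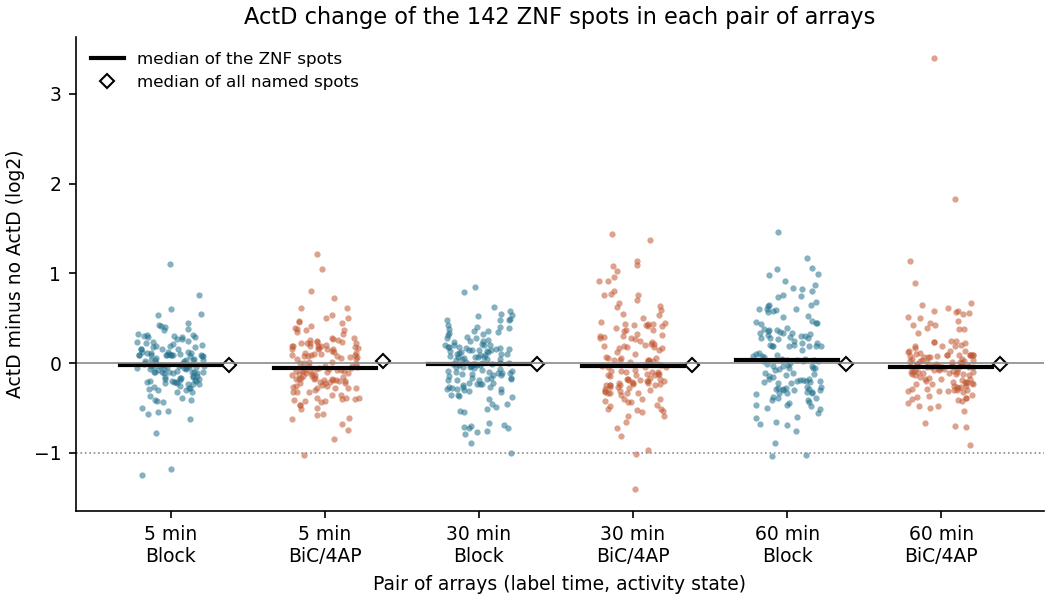
Change with ActD (log2, vertical axis) of each of the 142 ZNF spots in the 6 pairs of arrays (horizontal axis; blue, Block; orange, BiC/4AP); the black bar is the median of the ZNF spots, the diamond that of all 8496 named spots and the dotted line a log2 change of -1. Medians of the ZNF spots lie between -0.051 and 0.036, and the point near 3.40 in the last pair is ZNF426.

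At 5 min, among spots of 1 sign in both pairs, the smallest p values upward included ZNF503, a repressor known from striatal development. Its spot 3495 read 9.35 and 9.13 without ActD (Block and BiC/4AP) and 9.79 and 9.92 with it, a change of 0.62 (SE 0.18, adjusted p = 0.881). ZNF446 read 11.33 and 11.58 without and 11.87 and 11.95 with ActD (0.46, SE 0.16), and ZNF26 4.70 and 4.92 against 5.12 and 5.31 (0.40, SE 0.15). At these 3 spots both ActD arrays lay above both controls. Picking spots by small p and 1 sign favours such a separation, and its share over all spots was not counted. The 3 spots did not stay higher: the 30 min change of ZNF446 was -0.46 (SE 0.16), and the 60 min changes of ZNF503, ZNF446 and ZNF26 were below 0 in both pairs.

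Downward at 5 min, ZNF653 read 8.81 and 8.79 without ActD and 8.39 and 7.77 with it (-0.72, SE 0.32). The KRAB repressor ZNF133 read 7.49 and 7.18 against 6.96 and 6.50 (-0.60, SE 0.26), and ZNF76 at spot 8532 read 6.11 and 6.36 against 5.61 and 5.80 (-0.53, SE 0.18). ZNF653 (spot 273) and ZNF133 (spot 285) lie in different printing blocks, and their distance on the membrane is not known. The other spots of their blocks had medians of -0.27 and -0.16. With block median levels subtracted on each array before the fit, their changes were -0.28 and -0.25, and that of ZNF76 was -0.35. The part of membrane position in these values was not tested.

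At 30 min ZNF174, a SCAN protein, read 6.04 and 5.75 without ActD and 6.83 and 6.83 with it at spot 9576, a change of 0.94 (SE 0.27, adjusted p = 0.668). ZNF416 read 4.23 and 4.56 against 4.85 and 5.32 (0.69, SE 0.19), and the dim ZNF503 spot 4918 read 4.16 and 4.28 against 4.69 and 5.05 (0.65, SE 0.19). ZNF350, which with BRCA1 represses GADD45A in human cells, read 5.07 and 5.60 without and 4.40 and 4.63 with ActD (-0.82, SE 0.28). ZNF43 read 8.40 and 8.55 against 7.92 and 7.90 (-0.57, SE 0.16). The ActD arrays lay wholly on 1 side of the controls at all 5 spots, and no change passed the test. The way these spots were picked favours that separation as well, and its share over all spots was not counted. Another ZNF503 spot (3495) went the other way at 30 min, by -0.25.

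At 60 min ZNF426 showed the widest value, 1.86 (SE 0.66, adjusted p = 0.891). It rested on 1 array, the BiC/4AP control at 3.35, where the other 11 arrays read 6.29 to 6.86; the change was 3.40 in that pair and 0.32 in the Block pair. ZNF576 read 4.88 and 5.15 without and 5.21 and 5.77 with ActD (0.47, SE 0.16). ZNF473, a factor of histone pre-mRNA processing, read 5.77 and 5.32 against 6.05 and 5.90 (0.44, SE 0.17). Lower values came from ZNF580 (6.60 and 5.90 against 5.58 and 5.68, a change of -0.62, SE 0.24), ZNF263 (6.10 and 5.93 against 5.60 and 5.61, -0.41, SE 0.18) and ZNF232 (9.54 and 8.92 against 9.14 and 8.60, -0.37, SE 0.16). For ZNF580 the Block pair gave -1.03 and the BiC/4AP pair -0.22.

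If ZNF transcripts decayed faster than the average spot after the block, the ActD change would be lower at 60 than at 5 min. A decay shared by most spots would not lower it, because levels are relative to all spots of the array. The median of that difference over the ZNF spots was 0.045, beside -0.00066 over all named spots, and 0 of 142 were called in either direction (0% and 0% of all spots). By this measure 4 were higher and 4 lower at an unadjusted p under 0.05 (3.79% and 4.2%). Values ran from -1.10 (ZNF202, SE 0.54) to 2.15 (ZNF426, SE 0.93). Among spots of 1 sign in both differences, ZNF653 (1.41, SE 0.45), ZNF133 (1.07, SE 0.37) and ZNF576 (0.68, SE 0.23) had the smallest p upward, and ZNF503 at spot 3495 (-0.79, SE 0.25), ZNF26 (-0.65, SE 0.21) and ZNF446 (-0.63, SE 0.23) downward, each at an adjusted p of 0.580. These rest on the same arrays as the values of single times. With block medians subtracted ZNF653 stood at 0.86 and ZNF133 at 0.42, and the median over the ZNF spots was -0.039.

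ZNF spots were then set beside named spots of like brightness. Named spots were divided by mean level into 3 classes of equal size, with 50 ZNF spots in the dim class (level up to 5.74), 46 in the middle class and 46 in the bright class (from 6.99). In the dim class the median ActD change of the ZNF spots was -0.079, -0.074 and 0.092 at 5, 30 and 60 min, where the 2832 named spots gave 0.013, -0.047 and -0.0020. The middle class gave -0.084, 0.088 and 0.096 beside -0.043, 0.020 and 0.048. In the bright class the ZNF spots went from 0.097 at 5 min through 0.086 to -0.12 at 60 min, and the named spots from 0.031 through -0.017 to -0.093. The ZNF medians went the same way as those of all named spots between 5 and 60 min in the middle and bright classes. In the dim class the ZNF median of the difference of ActD effects (60 minus 5 min) was 0.078, beside -0.0021. The corresponding values were 0.18 and 0.090 in the middle and -0.24 and -0.17 in the bright class, where 35 of 46 ZNF spots lay below 0 (76.1%, against 60.3% of the named spots).

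**Figure D3:**
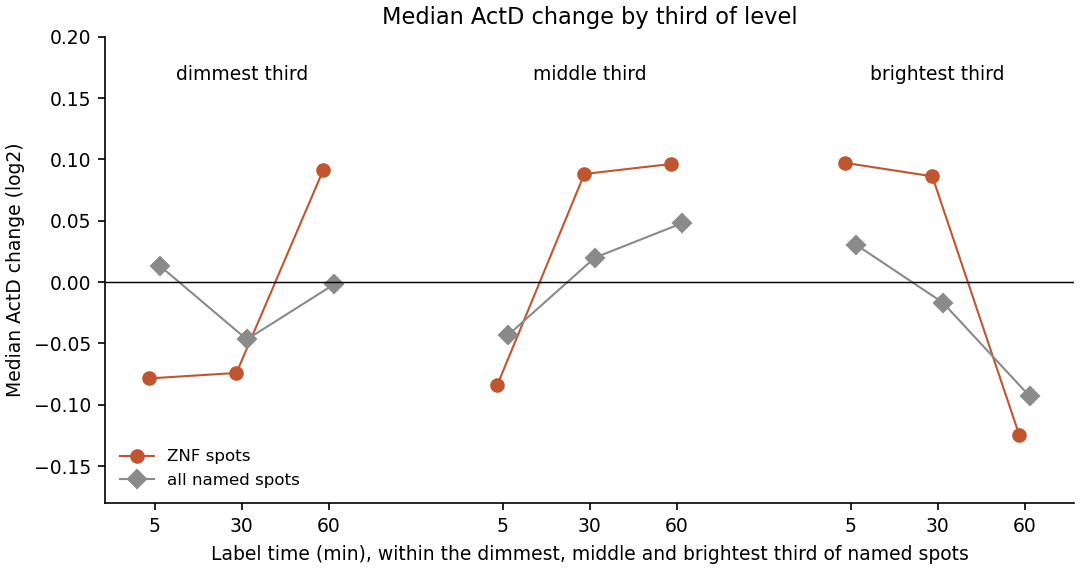
Median ActD change (log2, vertical axis) at 5, 30 and 60 min within 3 classes of mean level, for ZNF spots (circles; 50, 46 and 46 spots) and all named spots (diamonds; 2832 per class). In the bright class both were lower at 60 than at 5 min, at -0.12 and -0.093.

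Other lists around the class also had medians near 0 over all pairs, but not the same signs as the ZNF spots at 60 min. Zinc finger factors not numbered as ZNF (51 spots, 41 genes, such as ZFP, ZBTB and ZFX) had a median ActD change of -0.015 over all pairs, and the partners of KRAB proteins in heterochromatin (20 spots, 16 genes) of -0.018. A list of transcripts known to be short-lived (57 spots, 40 genes) had a median of -0.0085. None of the 3 lists held a called spot, in either direction, over all pairs or at any of the 3 times. The lists were not kept apart from each other and can share spots, so their medians are not independent. At 60 min their medians were -0.061, -0.057 and -0.037, beside 0.0086 for the ZNF spots. The difference of ActD effects (60 minus 5 min) had medians of -0.032, -0.13 and -0.11 in the same order. For the ZNF spots it was 0.045 and for all named spots -0.00066. No spot of the 3 lists was called for that difference. At 60 min the short-lived transcripts had 0 spots higher and 1 lower at an unadjusted p under 0.05 (1.76% and 1.34% of all spots). At 30 min that list had 1 higher and 6 lower of 57 (3.26% and 3.25% of all spots), and at 5 min 2 higher and 0 lower (3.03% and 2.46%).

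Some members work in RNA biology rather than in DNA binding. ZNF346 changed by 0.02 (SE 0.12) with ActD over all pairs. The ribosome factors ZNF622 (-0.13 at both of its spots, SE 0.18 each) and ZNF593 (-0.24, SE 0.11, and 0.0063, SE 0.10), the spliceosome protein ZNF830 (0.04, SE 0.11) and ZNF473 (0.00072, SE 0.14) did not pass the test. The miRNA targets named above had values of 0.21 (SE 0.12) for ZNF747 and -0.10 (SE 0.25) for ZNF202. On the 12 arrays ZNF747 read 4.81, 4.67, 5.24, 5.04, 5.31 and 5.16 without ActD and 4.91, 5.02, 5.08, 5.63, 5.61 and 5.25 with it, in the order of 5, 30 and 60 min with Block before BiC/4AP. It was higher with ActD in all pairs but that of 30 min Block. ZNF202 had ActD changes of 0.57, -0.32 and -0.54 at 5, 30 and 60 min. Both were called higher at 60 than at 5 min, by 0.48 (SE 0.14, limma adjusted p = 0.0278) and 1.18 (SE 0.30, adjusted p = 0.0147). In that comparison 16.2% of all spots and 14.8% of the ZNF spots were called higher, and time cannot be told from the batch of arrays. ZNF202 is a dim spot, with raw intensities of 14.28 to 41.51.

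Whether ActD acted differently in active and silent neurons was asked by the difference of the ActD changes (BiC/4AP minus Block). The median over the ZNF spots was -0.023, and 0 were called (0% of all spots in either direction). At an unadjusted p under 0.05, 4 were higher (1.27% of all spots) and 2 lower (0.74%). Values ran from -0.69 (ZNF337, SE 0.25) to 1.30 (ZNF821, a dim spot, SE 0.50). Among spots of 1 sign at all 3 times, ZNF587 (1.03, SE 0.31), ZNF667-AS1 (0.79, SE 0.24) and ZNF839 at spot 464 (0.75, SE 0.27) had the smallest p upward, and ZNF337, ZNF607 (-0.54, SE 0.21) and ZNF2 at spot 9295 (-0.52, SE 0.23) downward (adjusted p = 0.999 for each). This difference followed the place on the membrane more than the others did: across the 142 ZNF spots it had a Pearson correlation of 0.57 with the median of the other spots of the block, and of 0.43 across all named spots, both given as descriptions over spots that share their arrays. For ActD over all pairs the values were 0.48 and 0.31. With block medians subtracted ZNF337 stood at -0.14, ZNF607 at -0.23 and ZNF2 at 0.08.

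**Figure D4:**
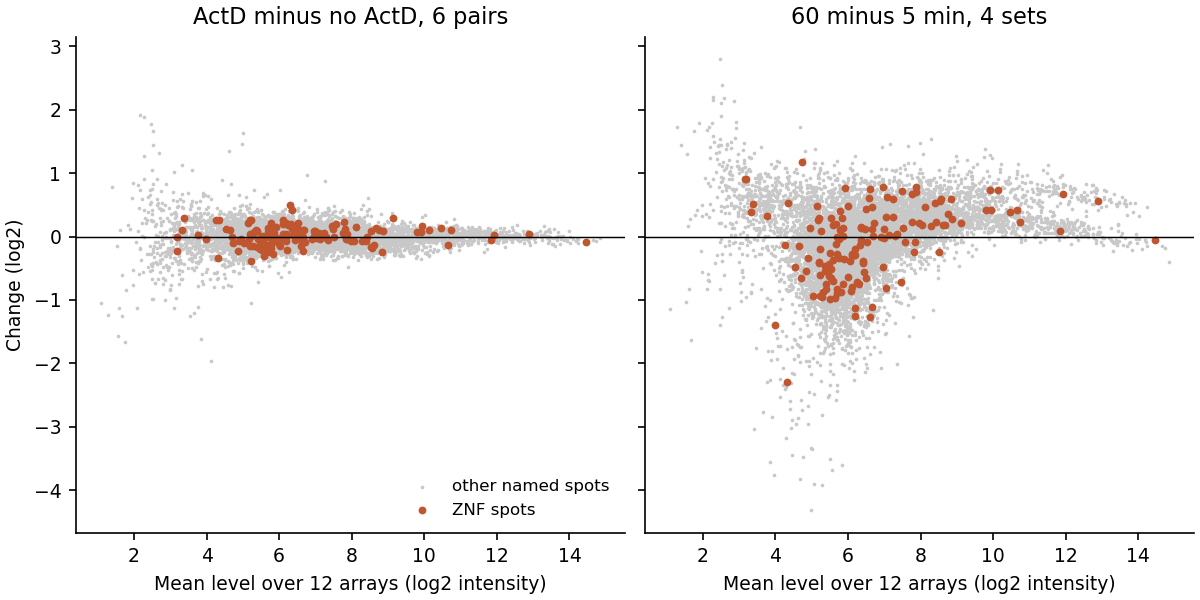
Change (log2, vertical axis) against mean log2 intensity over 12 arrays (horizontal axis) for the 142 ZNF spots (orange) and the other named spots (grey), with ActD on the left and 60 against 5 min on the right. ActD changes of the ZNF spots lie between -0.39 and 0.50, whereas those of time spread from -2.29 to 1.18.

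Activity was compared next, as BiC/4AP against Block within 6 pairs. No ZNF spot was called (0 of 142 in either direction; 0% and 0% of all spots), and the median change was -0.020, beside -0.0022 for all named spots. At an unadjusted p under 0.05, 6 ZNF spots were higher and 2 lower (3.5% and 1.69% of all spots). Higher in 6 of 6 pairs were 6 ZNF spots (4.23%, against 2.98% of all spots), and lower in all 6 was 1 (0.704%, against 0.844%).

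ZNF416 was higher with activity by 0.40 (SE 0.11, adjusted p = 0.904), reading 3.64, 4.08 and 4.85 in Block (lowest, median and highest of 6 arrays) and 3.85, 4.62 and 5.32 in BiC/4AP. ZNF672 was at 9.22, 10.16 and 10.55 against 9.59, 10.32 and 10.81 (0.25, SE 0.08). ZNF639 (0.23, SE 0.09), ZNF574 (0.19, SE 0.07) and ZNF395 (0.18, SE 0.08) had values of the same sign in all 6 pairs. ZNF330, a nucleolar protein, was the spot lower in all 6, by 0.09 to 0.64 in single pairs as levels of 7.52, 8.09 and 8.20 in Block went with 7.43, 7.63 and 7.93 in BiC/4AP (its change was -0.35, SE 0.11). The groups overlapped at each of these 6 spots.

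The study's own rule takes a transcript as co-regulated when its z-fold, the difference of z-scores between BiC/4AP and Block, lies beyond 1.4 in 1 direction both without and with ActD. The formula was taken here as the difference divided by its SD over all spots, which the sources used here do not state. At 5 min 0 ZNF spots met it in either direction (0.531% of all spots higher, 0.542% lower), and at 30 min 0 (0.615% and 0.438%). At 60 min ZNF764, a dim spot at 3.77, was higher in both, its z-fold being 1.92 in the arrays lacking ActD and 1.67 in those with it (0.344% of all spots). ZNF821, dimmer still at 3.33, went in opposite directions, -2.09 without and 1.99 with ActD (0.625% of all spots). There is no test of these values, since each rests on 1 array per condition. ZNF764 was at 3.55 and 4.55 without ActD and 2.94 and 3.84 with it (Block and BiC/4AP), raw intensities of 7.15 to 25.25 over all arrays. When the 10th percentile of an array was first added to its intensities, the z-fold of ZNF764 with ActD was 1.38 and that of ZNF821 without it -1.19, both within the threshold, and as plain differences of z-scores all 4 values lay within it.

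Time was the comparison in which ZNF spots did differ. The 4 arrays of each label time have consecutive numbers, so time and the batch of arrays cannot be told apart. At 60 against 5 min 21 ZNF spots were called higher (14.8%, against 16.2% of all spots) and 35 lower (24.6%, against 20.5%), so that the ZNF shares lay near those of the whole array. Before adjustment, at p under 0.05, there were 30 higher (22.2% of all spots) and 41 lower (24.5%). After median centring in place of the z-score the calls were 56 higher and 25 lower, and over all spots 3928 and 1306 in place of 1551 and 1966; this scaling moved the median of all spots from 0.059 to 0.36. Without the 3 Block arrays (no ActD) 33 ZNF spots and 2028 of all spots were called, in place of 56 and 3517. The median change of the ZNF spots was -0.0029, beside 0.038 for all named spots.

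The calls went with brightness. In the dim class 3 of 50 ZNF spots were called higher and 20 lower, in the middle class 4 and 13 of 46, and in the bright class 14 and 2 of 46. Among all named spots 10.8% of the dim class were called higher and 31.4% lower, and 27.5% and 2.33% of the bright class. The median intensity of the arrays was 81.8 to 137 at 5 min and 52.6 to 80.9 at 60 min, and the SD of log2 intensity was 2.05 to 2.14 and 2.25 to 2.30. Their part in the calls was not tested.

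Lower at 60 min was ZNF704, which read 7.53, 7.33, 7.49 and 7.43 at 5 min and 6.12, 6.21, 6.17 and 6.22 at 60 min (Block, Block + ActD, BiC/4AP and BiC/4AP + ActD). Its change was -1.27 (SE 0.11, limma adjusted p = 0.000193). The antisense transcript ZNF667-AS1 read 6.36, 5.74, 5.87 and 6.15 at 5 min and 4.16, 3.27, 3.91 and 3.62 at 60 min (-2.29, SE 0.26, adjusted p = 0.000475). ZNF2 at spot 6764 went from 4.77 to 5.32 down to 3.39 to 3.86 (-1.39, SE 0.16). Its raw intensity was exactly 10 on all 4 arrays of 30 min and all 4 of 60 min, and 31.82 to 48.58 at 5 min. Its 60 min levels therefore differ only through the normalisation, and the size of the fall and its SE rest on that constant. ZNF324 (-1.12, SE 0.14) and ZNF607 (-0.89, SE 0.12) were lower as well. At each of these 5 spots the 4 arrays of 60 min lay below the 4 of 5 min, without overlap, as they did at 27.5% of the ZNF spots and 22.7% of all spots. The changes of the other spots of their blocks had medians of -0.15 (ZNF704), -0.52 (ZNF667-AS1), -0.07 (ZNF2), -0.23 (ZNF324) and 0.27 (ZNF607). With block median levels subtracted on each array before the fit, which is another measure, ZNF704, ZNF667-AS1 and ZNF324 stood at -0.77, -1.33 and -0.64. The other ZNF2 spot (9295) changed by 0.0021.

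Higher at 60 min was ZNF343 (spot 1697), at 5.37, 5.35, 5.01 and 5.62 at 5 min and 6.24, 5.94, 6.12 and 6.12 at 60 min (0.77, SE 0.13, adjusted p = 0.00256). Its other spot (3662) went down by a log2 change of -0.62, and with block medians subtracted the first stood at 0.27 and was no longer called. ZNF358 read 7.01, 7.11, 7.48 and 7.48 against 8.07, 7.78, 8.13 and 8.21 (0.78, SE 0.13). The imprinted gene ZNF331 (0.79, SE 0.14), ZNF639 (0.70, SE 0.13) and ZNF768 (0.59, SE 0.11) were called too. Arrays of both times were apart at these 5 spots, as at 16.9% of ZNF spots and 18.1% of all spots in that direction.

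**Figure D5:**
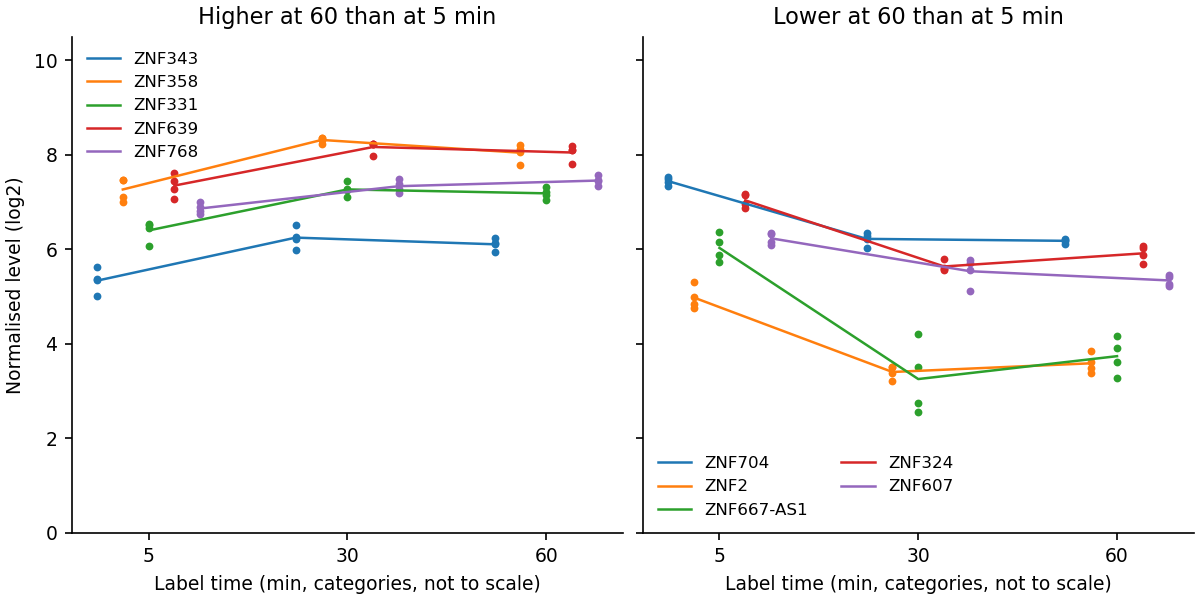
Normalised level (log2, vertical axis) at the 3 label times (horizontal axis, categories) of the ZNF spots named as higher (left) and lower (right) at 60 than at 5 min; points are the 4 arrays of a time and lines join their means. In each of the 10 the arrays of 5 and 60 min do not overlap, and ZNF667-AS1 went from 5.74 to 6.36 down to 3.27 to 4.16. For ZNF2 the raw intensity was exactly 10 on every array of 30 and 60 min.

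The 30 min arrays were compared with the same 5 min arrays. Against these, 27 ZNF spots were called higher (19.0%, where 20.1% of all spots were) and 41 lower (28.9%, where 24.4% were), and at an unadjusted p under 0.05 34 and 53 (25.4% and 28.7%). The arrays of both times lay apart at 25 ZNF spots upward (17.4% of all spots) and 46 downward (24.9%). Between 30 and 60 min only 5 were called higher (3.52%, against 3.03% of all spots) and 0 lower (0.115%). Before adjustment, at p under 0.05, these were 12 and 10 (9.25% and 7.08%), and the arrays lay apart at 12 and 5 spots (7.4% and 3.79%). The 5 were ZNF232 (1.49, SE 0.23), ZNF207 at spot 6781 (1.37, SE 0.18), ZNF43 (1.24, SE 0.17), ZNF219 (1.18, SE 0.13) and ZNF614 (0.68, SE 0.12), with adjusted p from 0.00584 to 0.0167. ZNF219, a partner of the cartilage factor SOX9, read 8.38, 8.46, 8.12 and 8.27 at 5 min, 7.38, 7.27, 7.42 and 7.18 at 30 min and 8.83, 8.51, 8.29 and 8.36 at 60 min, so that its 30 min arrays were the low ones. ZNF207, ZNF43 and ZNF232 had the same dip at 30 min. The 5 spots have numbers from 6258 to 6861, a stretch of 604 spots with 13 ZNF spots. It holds 20 of the 291 spots called higher on the whole array, or 6.87% of the calls on 6.29% of the spots. The stretch was drawn from the 5 spots themselves, so the part of membrane position was not tested by these shares.

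Several spots for 1 gene gave a last check of what a ZNF value holds. The 21 genes with at least 2 spots make 32 pairs of spots, whose levels differed by a median of 1.31 on the log2 scale, as those of 3640 such pairs over all named genes did (1.26). The ActD changes had the same sign in 13 of 32 pairs (40.6%, against 53.5% over all named pairs), those of activity in 14 (43.8%, against 53.7%) and those of time in 18 (56.2%, against 58.2%). Both spots were called for time in 4 pairs, in 2 of them in the same direction, and over all named pairs in 438, of which 293 had the same direction. ZNF207 rose at spot 6781 by 0.59 (SE 0.18) and fell at spot 8790 (-1.10, SE 0.19), and at spot 2526 the value was 0.22 (SE 0.16). The 4 spots for ZNF503 lay at 9.81, 5.85, 4.54 and 3.17, with ActD changes of 0.07, -0.06, 0.12 and -0.01 over all pairs. Those for ZNF3 gave 0.03, -0.13 and 0.12, and those for ZNF655 0.0041, -0.14 and -0.11. In 2 of the pairs both spots hold the same clone: those of ZNF205-AS1 lay at 8.86 and 7.34, and those of ZNF410, an activator of the chromatin remodeller gene CHD4, at 7.13 and 5.49. The ZNF410 spots had time changes of 0.02 (SE 0.13) and -0.99 (SE 0.17).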

How the data were processed

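Raw spot intensity from phosphorimager scans of 12 arrays was deposited by the authors in 1 table with a column per array, without background subtraction or normalisation. A second deposited table was identical in 115200 of 115200 values and was not used further. No further column of values per sample was present (0). Of 9600 spots, 8496 carry 1 gene symbol, 21 several and 1083 are not listed. The annotation was joined on spot number.

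Log2 intensity was turned into z-scores over all spots of an array, the study's method, and multiplied by the mean SD (2.15). Levels have the mean of all values (6.46) added. All 9600 spots were fitted with limma 3.58.1 in R 4.3.3 (lmFit, eBayes) on 12 arrays, with the pair of arrays or the set of times as a term and Benjamini-Hochberg adjustment over all spots, and no filter on dim spots. Residual degrees of freedom were 5 for ActD or activity over all pairs, 3 for ActD by time and 6 for time. The fit was tested on simulated data. With 1 array per condition, their number limits the precision.

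Named are the 10 brightest spots, those with the smallest p in each direction among spots of 1 sign in every pair or set (up to 10 for ActD over all pairs, 3 for ActD by time and its differences, 5 for activity and time), co-regulated spots and genes with at least 3 spots. Others named were chosen after their values were seen. The members and lists were chosen with earlier results of these data known. Alternatives were median centring, quantile normalisation, an offset before the log, and filters on dim spots, spots at 10 or last positions. Further ones were a fit without pair terms, gene means and leaving out pairs or sets. After seeing the data, the median level of each block was also subtracted on each array before the fit.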

Additional observations from a re-analysis of the deposited data

How the results depend on the processing

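Of 450 values for single ZNF spots under other settings, 437 kept direction and side of the threshold, 7 fell below it and 6 changed sign. With 1 pair or set of arrays left out, 199 of 214 kept direction and 15 changed sign. Most of these values belong to spots picked for 1 sign in every pair or set, so their direction could not change. Where 1 pair was left at a time there was no test, so the threshold was not assessed. All changes of sign were in ActD values that the test did not call. The median difference of ActD effects between 60 and 5 min (0.045) was 0.027 with gene means, -0.076 with median centring, 0.015 with quantile normalisation, 0.0049 with the 10th percentile added, -0.062 without the dimmest spots, 0.030 without spots at 10, 0.0094 without last positions and -0.039 with block medians subtracted. The median time change, 60 against 5 min (-0.0029), was -0.079 with gene means, 0.31 with median centring and 0.14 with block medians subtracted. The median ActD change at 5 min was 0.027 with median centring, 0.038 without the dimmest spots and 0.041 with block medians subtracted. At 30 min it was 0.044 without the dimmest spots and -0.034 with block medians subtracted, and at 60 min -0.043 with median centring and -0.027 without the dimmest spots. The cause of these shifts was not tested.

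The single spot of the array called for ActD over all pairs was lost (0 calls) with quantile normalisation, the 10th percentile added, without the dimmest spots, without spots at 10 and with block medians subtracted. Without the dimmest spots, which leaves fewer spots to test, 2290 spots and 37 ZNF spots were called for time, in place of 3517 and 56. At 5 min 2 of 142 ZNF spots were co-regulated with the 10th percentile added (2.64% of all spots), 3 of 97 without the dimmest spots (2.77%) and 1 without last positions (1.24%). At 30 min 1 was under quantile normalisation (1.22%), and 1 under each of these 3 settings (0.727% to 0.734%). At 60 min 2 were with median centring (0.948%) or without last positions (0.684%), and 0 as plain differences of z-scores (0.0312%). ActD values of the other sign were -0.0058 for ZNF655 (spot 691) with median centring, 0.0044 and 0.0031 for ZNF503 (spot 7393) with the 10th percentile added and without last positions and, with block medians subtracted, 0.0099 for ZNF207 (spot 2526), -0.0084 for ZNF3 (spot 9079) and 0.079 for ZNF2 (spot 9295, difference between states).

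With 1 pair or set of arrays left out, the ranges were 0 to 1 call for ActD over all spots, 2028 to 2781 spots and 33 to 49 ZNF spots for time, the lowest without the Block arrays. The medians ran from -0.0091 to 0.028 for ActD over all pairs, -0.051 to -0.021 at 5 min, -0.031 to -0.0081 at 30 min, -0.037 to 0.036 at 60 min, 0.0094 to 0.024 for 60 minus 5 min, -0.036 to 0.036 for time and -0.023 to -0.00068 for activity. ActD values that changed sign ran from -0.080 to 0.16 (ZNF503, spot 3495), -0.017 to 0.25 (spot 4918), -0.23 to 0.19 (spot 7393), -0.14 to 0.0037 (spot 7887), -0.023 to 0.082 (ZNF655, spot 691), -0.13 to 0.013 (ZNF207, spot 2526), -0.0098 to 0.21 (spot 8790) and -0.045 to 0.057 (ZNF3, spot 9079). Beyond the pairs and sets of conditions that every fit used as a term, replicate numbers could not serve as a block. By replicate number no paired analysis was possible because each condition has a single array.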
